A study of Homo sapiens with 8 samples.

Results

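The negative control duplex, a synthetic double-stranded RNA built like a microRNA mimic but unrelated to miR-8073, was compared with mock treatment in HCT116, a cell line of human colorectal cancer. The 5 arrays of this comparison were chosen by their labels and were 5 of 8 in all. In 3 samples the cells were transfected with the negative control sequence (mirVana Negative Control #1 with Lipofectamine RNAiMAX, per the study's methods), and in 2 samples they were mock-treated. The study's text calls the mock condition a blank and does not say whether it received the transfection reagent. Negative control against mock by itself therefore cannot tell an effect of the duplex from an effect of the reagent. The miR-8073 mimic cells were transfected with the same reagent, per the study's methods. The study's text describes the mock condition as assayed in triplicate, while the series holds 2 mock arrays, both used here. The other 3 samples received a synthetic mimic of miR-8073 and entered through the normalization between arrays, the filter on dim probes and the shared estimate of spread, and as levels set beside the genes below. All samples were of the same line. The times after transfection given for them in the study's text differ from each other. Nothing in the sources says that replicates came from separate cultures. The p-values therefore reflect the spread among these samples alone, and that spread may be technical.

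A microRNA duplex is loaded into an Argonaute protein, which keeps a single strand as guide. The guide pairs through its seed, bases 2 to 8, with messenger RNAs, and the silencing complex then recruits deadenylases and decapping enzymes that shorten and degrade them. A duplex without intended targets enters through the same endosomal route, meets the same double-stranded RNA sensors and occupies the same Argonaute proteins, which is why it is used as the comparator for a mimic. Cells sense foreign double-stranded RNA through RIG-I-like receptors, Toll-like receptors, PKR and the OAS enzymes, and answer with interferon-stimulated and NF-kB target genes. The sequence of the negative control was not among the sources used here. The mature miR-8073 given to the mimic cells, from RefSeq (GRCh38.p14, chr13:110340968-110340989, plus strand), is shown so that its seed, in capitals, can be told from whatever guide the negative control carries.
hsa-miR-8073: aCCUGGCAgcagggagcgucgu

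Messenger RNA was measured on a single-dye 25K oligo chip with 24460 probes. Signals are background-corrected, normalized scanner units, and a log2 change is the difference of group means of log2(signal + 50). On that scale the change of a dim probe is understated. Of all probes, 11559 to 12786 were above background on an array. Log2 values correlated at 0.995 to 0.996 between negative control arrays, at 0.993 between the mock arrays and at 0.986 to 0.993 between a mock and a negative control array. The 2 mock arrays differed by more than 0.5 in log2 for 239 of 12904 tested probes, against 54 to 144 probes between negative control arrays and 262 to 797 between a mock and a negative control array. Of 9 colon epithelial and HCT116 marker genes with a probe, 6 were above background on all 5 arrays (CD44, CDH1, EPCAM, KRT18, KRT19 and VIL1), while CEACAM5 and LGALS4 were above it on none. Their summed signal was 6846 to 8430 on the negative control arrays and 8017 to 8150 on the mock arrays. The defining fibroblast, leukocyte and endothelial markers COL1A1, COL3A1, PTPRC, CD3E, VWF and CDH5 were above background on none of the 5 arrays, as were 6 of 9 genes of the fibroblast list, 7 of 9 of the leukocyte list and 4 of 5 of the endothelial list in all. DCN and PDGFRB, CD68 and KDR of these lists were above background on all 5. The summed signal of the fibroblast list was 79.6 to 90.4 on negative control and 74.6 to 79.98 on mock arrays, that of the leukocyte list 32.2 to 40.2 and 35.7 to 37.98, and that of the endothelial list 15.5 to 19.0 and 13.4 to 15.2. Their part in the results was not tested. In bulk RNA, fewer cells of a kind and less RNA per cell cannot be told apart.

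The negative control duplex was accompanied by changes in a small share of probes, most of them modest in size. Of 12904 tested probes, 465 (3.6%) passed an adjusted p of 0.05 against mock (limma, Benjamini-Hochberg over all tested probes), of which 288 (2.23%) were lower and 177 (1.37%) higher with the negative control. They stood for 425 genes, 257 lower and 168 higher. On the log2(signal + 50) scale the falls went further than the rises. A change of at least 1 on the log2 scale was reached among the called probes by 8 with a fall and by 1 with a rise, and one of at least 0.5 by 101 and 50. Called probes that were lower had a median log2 change of -0.42 and those that were higher one of 0.39. Across all tested probes the median was 0.00089, with the 1st percentile at -0.51 and the 99th at 0.50. For comparison, mimic against mock called 488 probes (3.78%) on the same mock arrays. Where a gene below passed in both comparisons, the 2 results are not independent, since both use those mock arrays.

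**Figure D1:**
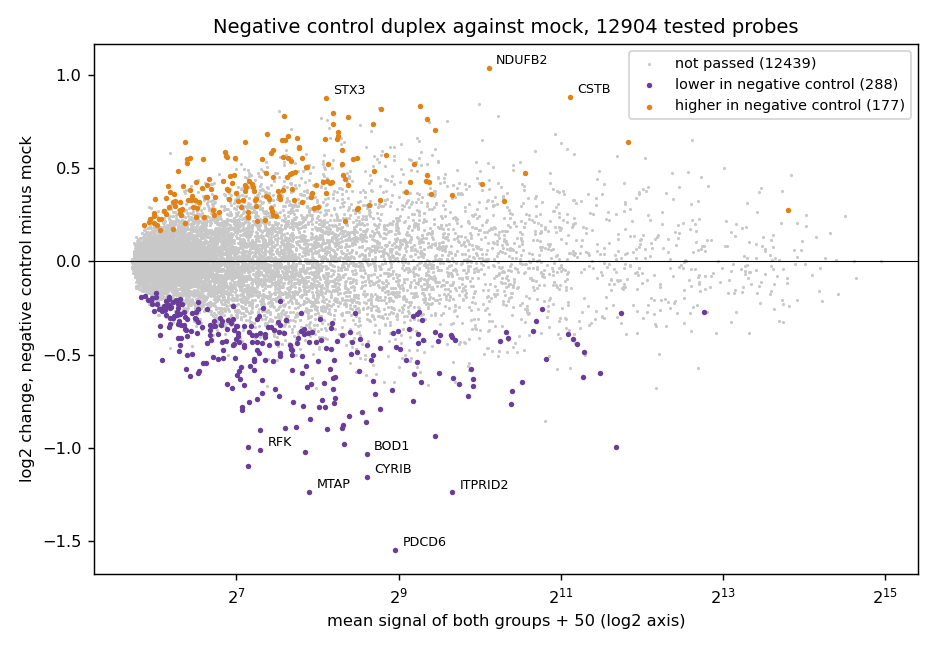
Log2 change of every tested probe, negative control minus mock, against the mean signal of both groups plus 50 on a log2 axis. Purple points are the 288 probes called lower with the negative control, orange points the 177 called higher, and the points below -1 include PDCD6, MTAP, ITPRID2, CYRIB and BOD1.

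The calls rested on few arrays. All 465 called probes had no overlap between the 3 negative control and the 2 mock arrays, but so did 5072 of the 12904 tested probes. Leaving out mock replicate 1 cut the calls to 69, and leaving out negative control replicate 1, 2 or 3 gave 124, 231 or 111 calls, against 347 without mock replicate 2. With the background taken from the ring of pixels at each spot, limma made 0 calls (421 probes at an unadjusted p below 0.05, against 2744 here). On the log2 values that the authors deposited, the median of all tested probes was -0.12 and 79 of 89 calls (88.8%) were lower, against 288 of 465 (61.9%) here, so the balance of falls and rises depended on the values used.

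Among the 72 genes named below that passed, 20 kept their call whichever of the 8 arrays was left out. These were 16 falls, namely PDCD6, ITPRID2, MTAP, CYRIB, BOD1, RBPJ, RFK, HSP90AA2P, CCND3, C12orf57, MED21, RCHY1, CNOT7, RAB7A, ATG12 and MET, and 4 rises, STX3, PLEKHG3, ALDH3A2 and ITGA5. The other 52 lost it in at least 1 such refit. Without mock replicate 1, 21 of the 72 still passed.

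The genes with the largest falls had unlike roles. PDCD6, a calcium-binding protein of the ALG-2 type that acts in membrane repair and vesicle traffic, had signals of 200.2, 232 and 179 in negative control cells, 953, 675 and 883 in mimic cells and 724 and 656 in mock cells. Every negative control array lay far under every other array. The fall was 3.39-fold (-1.55 ± 0.14 on the log2 scale, SE, adjusted p = 0.0055, limma), and mimic against mock gave 0.25 (adjusted p = 0.43). ITPRID2, which binds inositol trisphosphate receptors, measured 459, 402 and 424 in negative control, 1031, 1089.7 and 941 in mimic and 921 and 1261 in mock cells, a change of -1.24 ± 0.13 (adjusted p = 0.0062). A further probe of ITPRID2 fell by 1.10 (adjusted p = 0.0023). MTAP, the phosphorylase of the methionine salvage pathway, stood at 79.8, 103 and 93.6 in negative control, 278, 250.1 and 304 in mimic and 272 and 298 in mock cells (-1.24 ± 0.091, adjusted p = 0.0024). Its negative control arrays did not reach the lowest array of either other group.

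CYRIB, which binds RAC1 and restrains actin remodelling, had 218, 189 and 170.1 in negative control, 683, 623 and 666 in mimic and 555 and 428 in mock cells (-1.15, adjusted p = 0.0062). BOD1, needed for chromosomes to biorient on the spindle, had the lowest adjusted p of all probes, 0.0019, with 193, 212 and 212 in negative control, 329, 333 and 349 in mimic and 454 and 491 in mock cells. Its levels were in 3 separate steps, and mimic against mock gave -0.43 (adjusted p = 0.0084) beside -1.03 for negative control against mock. A further BOD1 probe changed by -0.98 (adjusted p = 0.0085). RBPJ, the DNA-binding partner of Notch, fell to 102 ± 9.92 in negative control cells, against 290.3 ± 26.2 in mimic and 259 ± 19 in mock cells (-1.02, adjusted p = 0.0032, with signals here and below as mean ± SD over 3, 3 and 2 arrays). RFK, the riboflavin kinase that makes FMN, fell to 53.8 ± 4.98, against 159 ± 13.7 and 159 ± 10.8 in mimic and mock cells (-1.01, adjusted p = 0.0023), and its further probe fell too (-0.63, adjusted p = 0.017). CCND3, cyclin D3 of the G1 phase, measured 43.1, 40.9 and 48.4 in negative control, 132, 112 and 129 in mimic and 144 and 131 in mock cells, a 3.11-fold fall (-0.99, adjusted p = 0.0023).

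The remaining members of the 15 largest falls fell by 0.88 to 0.99 on the log2 scale. HSP90AA2P is annotated as a pseudogene of HSP90AA1, so its probe may not separate the copies. Probe sequences were not compared with either copy. The probe averaged 2152 ± 292 in negative control, 3768 ± 221 in mimic and 4309 ± 42.2 in mock cells. MED21 of the Mediator complex had 59.7, 69.2 and 49.9 in negative control and 152 and 158 in mock cells (-0.90, adjusted p = 0.0062). RCHY1, an E3 ubiquitin ligase of p53, had 188, 173 and 153 in negative control and 373 and 349 in mock cells, and C12orf57 had 429, 432 and 429.6 against 867 and 874. Both fell, by 0.89 and 0.94 on the log2 scale (adjusted p = 0.0032 and 0.0047). NGRN, of mitochondrial ribosome assembly, and XRCC4, of DNA end joining, fell by 0.90 and 0.89, but their mock arrays were wide apart, with 374 and 251 for NGRN and 258 and 149 for XRCC4. Without mock replicate 1 neither passed (adjusted p = 0.089 and 0.14). NGRN also lost its call without negative control replicate 1 or 3, and XRCC4 without any single negative control or mimic array.

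**Figure D2:**
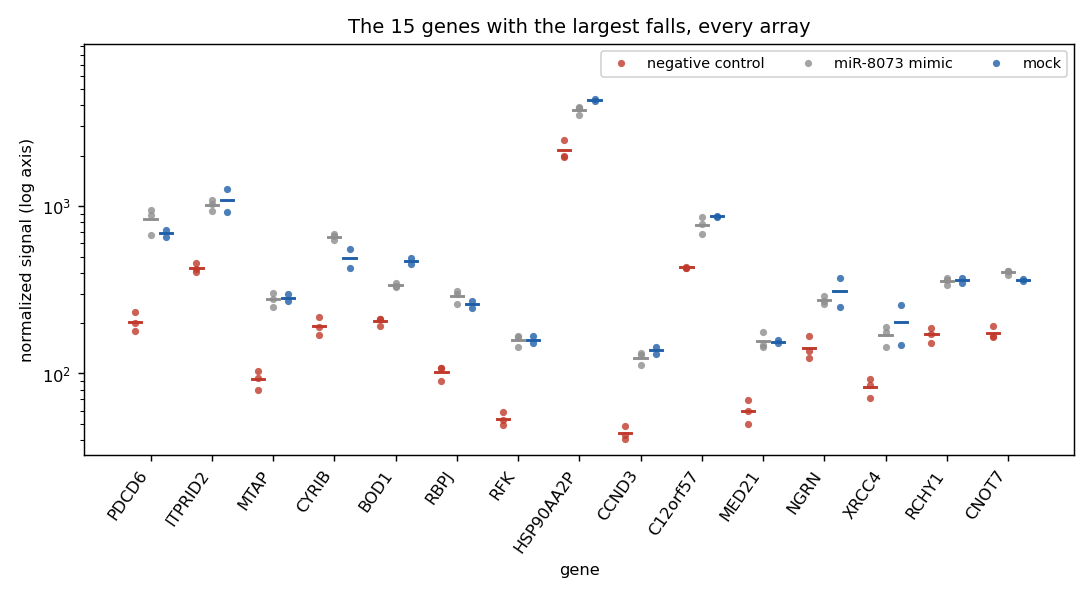
Normalized signal on a log axis of the 15 genes with the largest falls, with every array as a point and the group mean as a bar, in negative control (red), miR-8073 mimic (grey) and mock (blue) cells. For each gene the 3 negative control points lie under both mock points, and in XRCC4 the mock points are 258 and 149.

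On the log2(signal + 50) scale that ranks them, the 15 largest rises were smaller and less stable than the falls. By ratio of signals they reached 2.13-fold, and the dim SMARCD2, CCN2 and KRT80 below rose further, by 3.50-, 2.74- and 2.69-fold. NDUFB2, a subunit of respiratory complex I, had 1587, 1473 and 1199 in negative control, 791, 864 and 748 in mimic and 492 and 884 in mock cells. It rose by 1.04 ± 0.22 (adjusted p = 0.05), yet a further NDUFB2 probe averaged 368.3 in negative control and 368.2 in mock cells, so the gene's probes disagreed. CSTB, cystatin B, an inhibitor of lysosomal cathepsins, rose to 2799 ± 231, against 1418 ± 169 in mimic and 1522 ± 442 in mock cells (0.88, adjusted p = 0.041). STX3, a SNARE protein of apical membrane fusion, gave 308, 282 and 324 in negative control, 184, 196 and 209 in mimic and 129.6 and 157 in mock cells (0.88 ± 0.079, adjusted p = 0.0047). No array of STX3 crossed between groups, but its further probe changed by 0.13 and did not pass (adjusted p = 0.39).

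PLEKHG3 had 166, 146 and 154 in negative control, 75.4, 69.7 and 78.3 in mimic and 86.5 and 70 in mock cells, a 1.99-fold rise (adjusted p = 0.0062). ALDH3A2, the fatty aldehyde dehydrogenase, rose to 323 ± 10.6, against 205 ± 21.5 in mimic and 185 ± 14.1 in mock cells (adjusted p = 0.0098). MIDN, midnolin, which brings proteins to the proteasome, rose 2.12-fold, with 219, 176 and 184 in negative control and 95.3 and 87.3 in mock cells (adjusted p = 0.014). NME4, a mitochondrial nucleoside diphosphate kinase, rose on both of its probes, by 0.74 (adjusted p = 0.014) and 0.66 (adjusted p = 0.030). LAMA5, the alpha chain of laminins of the epithelial basement membrane, averaged 463 ± 50 in negative control, 387 ± 32.9 in mimic and 257 ± 12.3 in mock cells. LAMA5 passed in mimic against mock too (0.51, adjusted p = 0.030), a comparison that uses the same mock arrays. The polycomb genes SUZ12 and CBX6 were also among the 15, at 0.80 (adjusted p = 0.049) and 0.76 (adjusted p = 0.02). CBX6 had 748, 770.3 and 797 in negative control, 294, 206 and 234 in mimic and 415 and 454 in mock cells, so mock lay between.

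FAM83H, UTP3, SLC2A4RG, SERF1A and FRMD8 completed the set, with rises of 0.70 for FRMD8 to 0.83 for FAM83H. The probes of SUZ12 and SERF1A may also detect the near-identical SUZ12P1 and SERF1B, which was not examined. Left out in turn, mock replicate 1 left 3 of the 15 rises called and mock replicate 2 left 13, while without negative control replicate 1, 2 or 3 the number was 6, 10 or 6. Without mimic replicate 1, 2 or 3 it was 11, 10 or 10. On the deposited log2 values 1 of the 15 rises passed, against all 15 of the falls. The median change of all tested probes on those values was itself below 0, at -0.12.

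**Figure D3:**
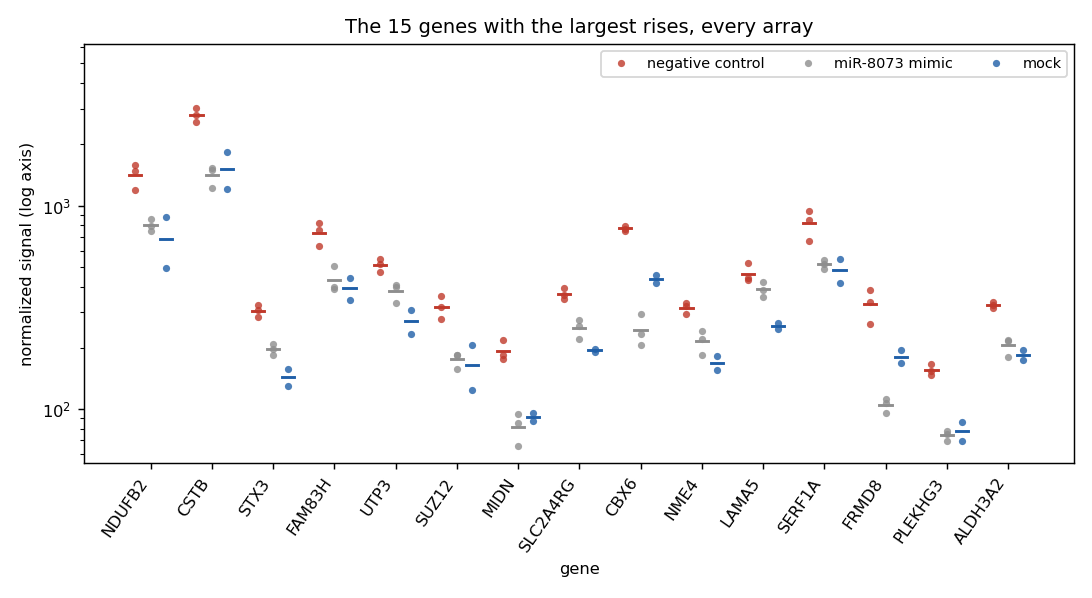
Normalized signal on a log axis of the 15 genes with the largest rises, drawn as for the falls, in negative control (red), miR-8073 mimic (grey) and mock (blue) cells. The 3 negative control points lie above both mock points for each gene, and the mock points of NDUFB2 are 492 and 884.

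Among genes that answer to double-stranded RNA, OAS3 alone passed. Of 51 interferon-stimulated genes listed, 48 had a probe and 27 were above background on enough arrays to be tested. OAS3, which makes the oligoadenylates that activate RNase L, rose, and none fell, a share of 3.7% beside 3.6% of all tested probes. OAS3 had 153, 121 and 153 in negative control, 83.6, 75.7 and 73 in mimic and 85.6 and 90.3 in mock cells (0.47 ± 0.081, adjusted p = 0.029). It did not pass without negative control replicate 1 or 3, mimic replicate 2 or either mock array (adjusted p = 0.083, 0.087, 0.051, 0.15 and 0.066). The median change of the 27 genes was 0.06, and 19 of them were above 0.

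ISG15, a ubiquitin-like protein that is among the most strongly induced of these genes, had 609.7, 803 and 656 in negative control, 855, 921 and 956 in mimic and 734 and 629 in mock cells. Its change was 0.01 with a 95% interval of -0.26 to 0.28. IRF7, the factor that amplifies the interferon response, had 32, 31.5 and 28 in negative control and 10.2 and 20.5 in mock cells (0.30, adjusted p = 0.054), and IFI6 had 81.7, 71.6 and 66.6 against 44.4 and 56.4 (0.30, adjusted p = 0.10). Both lay higher on every negative control array without passing. IFI27, a small interferon-induced membrane protein, was dim and averaged 11.3 ± 1.48 in negative control and 4.64 ± 1.76 in mock cells (0.17 on the offset scale, adjusted p = 0.070). The offset of 50 keeps the log2 changes of such dim genes small, so their intervals set no limit on the ratio of signals. SAMD9 was above background on 0 of the 3 negative control arrays, and IFIT1, DDX60, DTX3L and IFIH1 on 1. IRF7 and IFI27 passed beside OAS3 with an offset of 16 or an intensity trend in the prior. Of the 21 members with a probe that were not tested, 20, among them IFIT2, IFIT3, MX1, OAS1, OASL and CXCL10, were above background on none of the negative control arrays.

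**Figure D4:**
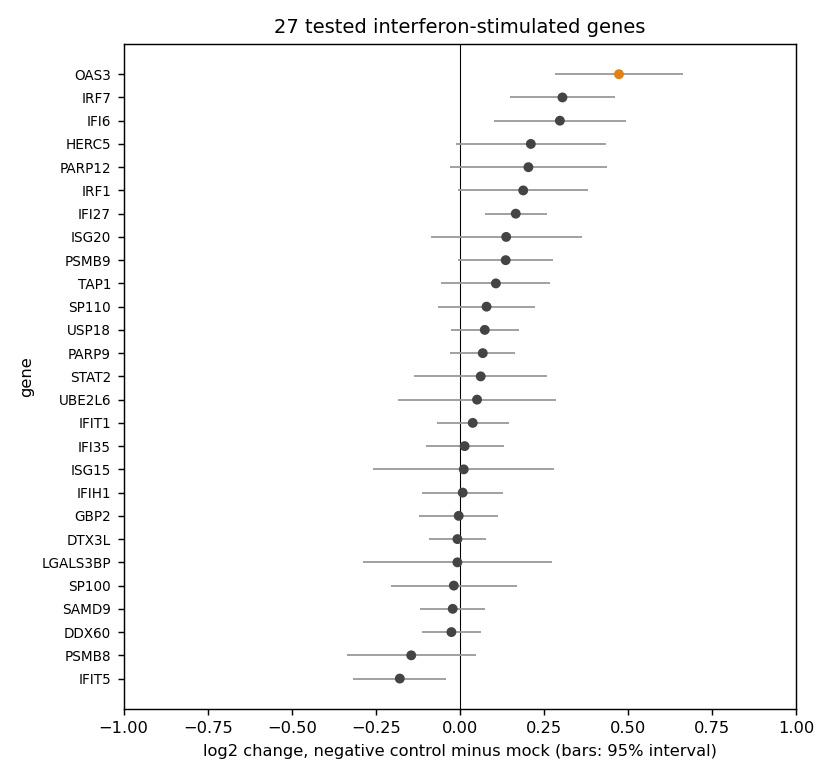
Log2 change, negative control minus mock, of the 27 tested interferon-stimulated genes, with 95% intervals for the difference of group means. The intervals come from the limma fit to all 8 arrays and reflect the spread among these arrays alone. Changes are on the log2(signal + 50) scale, which understates those of dim genes. OAS3, in orange, is the gene that passed, and ISG15 lies at 0.01.

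The sensors themselves were 14 tested genes of 25 listed. RIG-I (RIGI), MDA5 (IFIH1), PKR (EIF2AK2), MAVS, TBK1 and IRF3 changed by -0.09 to 0.12 and did not pass. OAS3 is in this list too and was its only call (7.14%, beside 3.6% of all tested probes), and the median was 0.01. The 9 members with a probe that were not tested, TLR3, TLR7 and TLR8 among them, were above background on none of the negative control arrays. In the NF-kB list 0 of 15 tested genes passed, with a median of 0.04. BIRC3, an inhibitor of apoptosis that NF-kB induces, was 3.29-fold higher in signal but dim, with 15.3, 22.1 and 15.7 in negative control and 4.53 and 6.25 in mock cells (adjusted p = 0.075). NFKBIA, the inhibitor that closes the loop, had 349.5, 237 and 426 in negative control and 188 and 274 in mock cells and overlapped between groups (adjusted p = 0.28).

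The silencing machinery held 25 tested genes, of which AGO2 rose and CNOT7 fell (8%, beside 3.6% of all tested probes). AGO2, the slicing Argonaute, had 206, 157 and 213 in negative control, 167, 144 and 142 in mimic and 114 and 117 in mock cells (0.54 ± 0.11, adjusted p = 0.041). Both duplex-treated groups lay above both mock arrays, while mimic against mock did not pass (adjusted p = 0.22). CNOT7, a deadenylase of the CCR4-NOT complex, had 168, 164 and 193 in negative control, 386, 412 and 410.2 in mimic and 358 and 369 in mock cells, a 2.07-fold fall (adjusted p = 0.0023). Other CCR4-NOT members CNOT1, CNOT2 and CNOT9 stood at -0.21, -0.29 and -0.23 without passing, and the list's median was 0.01. DICER1, AGO1 and AGO3 changed by 0.10, 0.05 and 0.02 and did not pass.

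On the route that a lipid-borne duplex takes, RAB7A was the only call among 34 endocytosis and endosome genes (2.94%, beside 3.6% of all tested probes). RAB7A, the GTPase of late endosomes, had 103, 101 and 109 in negative control, 239, 204 and 227 in mimic and 207 and 213 in mock cells (-0.75 ± 0.059, adjusted p = 0.0031), with no overlap. Among 38 lysosome and autophagy genes 3 fell and 0 rose (7.89%, beside 3.6% of all tested probes). ATG12, the ubiquitin-like protein of autophagosome formation, averaged 266 ± 15.5 in negative control, 468 ± 26.1 in mimic and 467 ± 45.3 in mock cells (adjusted p = 0.0062). GLA, the lysosomal galactosidase, fell by 0.43 and NBR1, an autophagy receptor, by 0.30 (adjusted p = 0.025 and 0.029). The medians of these lists, -0.01 and 0.01, were near that of all probes.

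Stress programmes showed single members rather than whole lists past the test. Of 29 p53 targets 1 rose and 2 fell (10.3%, beside 3.6% of all tested probes). KITLG, the ligand of KIT, fell to 122 ± 15.8, against 151 ± 32 in mimic and 258 ± 12.8 in mock cells (-0.84, adjusted p = 0.023). PLK2 fell by 0.39 and BTG2, an antiproliferative gene, rose by 0.26 (adjusted p = 0.04 and 0.035). BTG2 rose as far in mimic against mock (0.26, adjusted p = 0.033). The ATF4 list had 1 fall in 26 (3.85%, beside 3.6% of all tested probes), that of SHMT2, the mitochondrial serine hydroxymethyltransferase. SHMT2 had 434, 501 and 457 in negative control, 299.7, 301 and 316 in mimic and 646 and 643 in mock cells (adjusted p = 0.013).

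The list of endoplasmic reticulum chaperones had the highest share of calls among the 30 lists, 4 of 27 (14.8%, beside 3.6% of all tested probes). PDIA4, a protein disulfide isomerase, had 243, 232 and 194 in negative control, 384, 329 and 398 in mimic and 425 and 426 in mock cells, a 1.91-fold fall (adjusted p = 0.012). CANX, the chaperone calnexin, and ATF6, a sensor of unfolded proteins, fell by 0.60 and 0.37 (adjusted p = 0.029 and 0.026). ERO1A, the oxidase that recharges disulfide isomerases, moved the other way, with 312, 344 and 303 in negative control and 203 and 234 in mock cells (adjusted p = 0.021). HSPA5, the central induced chaperone of this response, changed by 0.05 and did not pass (adjusted p = 0.80), and the median was -0.08. Without mock replicate 1 no member of this list passed, and without negative control replicate 1, 2 or 3 the count was 1, 2 or 2.

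Heat shock genes had a median of -0.13 with 1 fall in 25 (4%, beside 3.6% of all tested probes). HSPA13 was that fall (-0.34, adjusted p = 0.04), while HSPA9 and HSPA4 stood at -0.65 and -0.48 without passing. The NRF2 and oxidative stress list had the highest median of the 30, 0.23, and 21 of its 24 tested genes were above 0. Of these, 1 passed as a rise (4.17%, beside 3.6% of all tested probes). AKR1B10, an aldo-keto reductase, had 21.3, 22.1 and 19.5 in negative control, 13.8, 11 and 13.8 in mimic and 10.6 and 10.7 in mock cells (adjusted p = 0.029). TKT, a transketolase, had 1317, 1281 and 1142 in negative control, 868, 858 and 1110.4 in mimic and 827 and 868 in mock cells and was just short of the threshold (0.53, adjusted p = 0.053). The ferritin chains FTH1 and FTL were 0.47 and 0.37 higher and KEAP1, the inhibitor of NRF2, 0.75, none of them passing (adjusted p = 0.081, 0.074 and 0.16). The list median lay between 0.18 and 0.26 when any array was left out, in refits that share most of their arrays. The 95% intervals of its members had a median half-width of 0.29, the widest among the 30 lists. Of 10 metallothionein and zinc transport genes 0 passed, with MT1H at -0.17 and MT1E at -0.12 (adjusted p = 0.52 and 0.54).

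**Figure D5:**
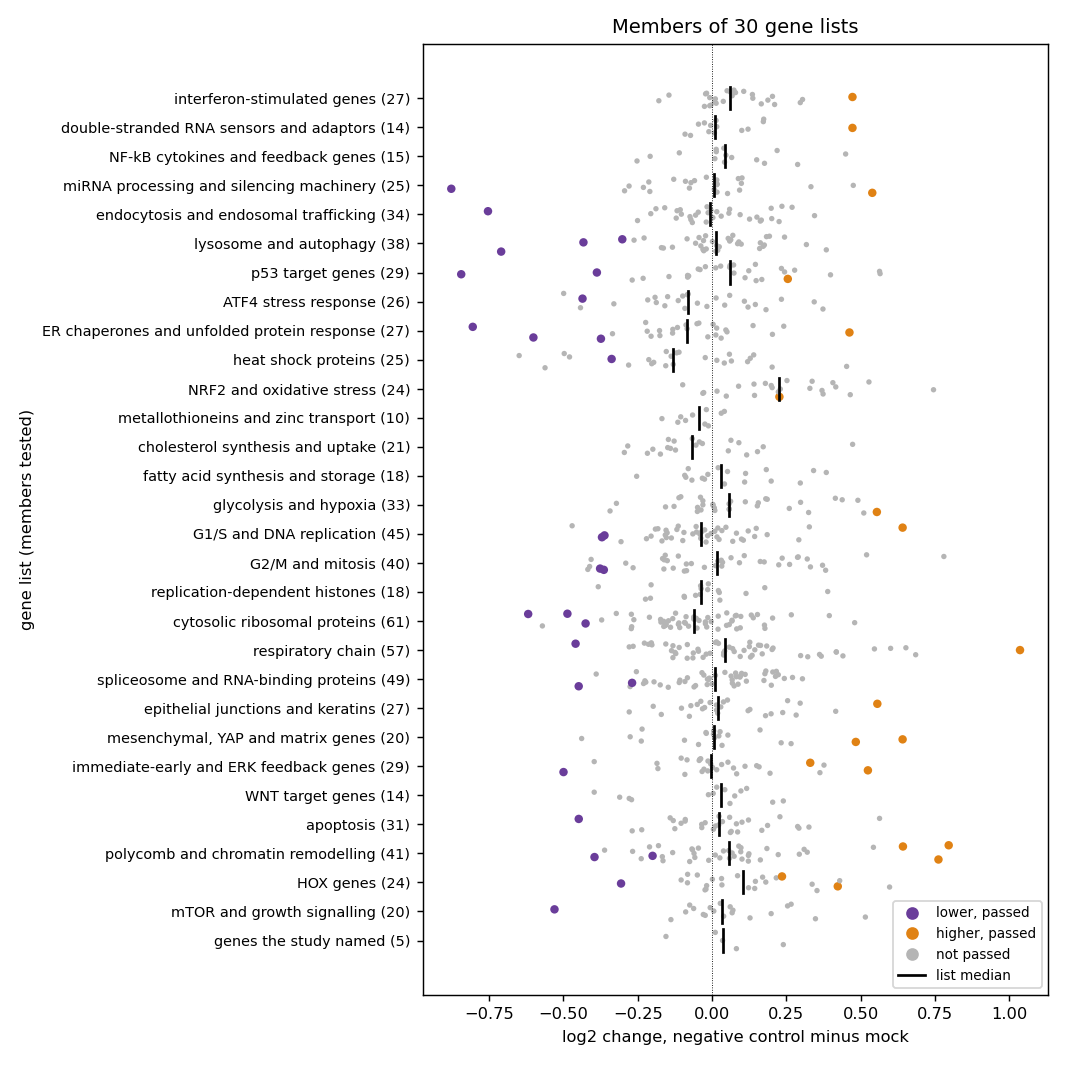
Log2 change, negative control minus mock, of each tested member of 30 gene lists, with the number of members in brackets and the list median as a black line. Members past the test are purple when lower and orange when higher with the negative control, and the NRF2 list has the median farthest to the right, 0.23.

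Growth and metabolism genes mostly did not pass. Among 45 G1/S and replication genes 1 rose and 2 fell (6.67%, beside 3.6% of all tested probes). RRM2, a subunit of ribonucleotide reductase, had 4463, 4417 and 4246 in negative control, 1689, 1986 and 2001 in mimic and 2456 and 3160.1 in mock cells (0.64, adjusted p = 0.03), with the negative control highest. The replication factors GINS3 and MCM3 fell by 0.37 and 0.36 (adjusted p = 0.014 and 0.017). Their falls were larger in mimic against mock, at -0.68 and -0.64 (adjusted p = 0.0016 and 0.0018). Members of this list moved both ways around a median of -0.04. Of 40 mitotic genes 2 fell (5%, beside 3.6% of all tested probes). They were BIRC5, survivin of the chromosomal passenger complex (439 ± 11.6 in negative control, 453 ± 2 in mimic and 580.0 ± 21.6 in mock cells, adjusted p = 0.0081), and BUB3, of the spindle checkpoint (-0.38, adjusted p = 0.047). The histone list had 0 of 18 past the test, with H2BC14 at 0.39 and H3C12 at -0.38 (adjusted p = 0.24 and 0.14). Probes may not fully separate its near-identical genes.

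Cholesterol and fatty acid synthesis had 0 of 21 and 0 of 18. MVK, mevalonate kinase, had 166, 152 and 162 in negative control, 198, 179 and 189 in mimic and 80.7 and 125 in mock cells (adjusted p = 0.066), and EBP, a sterol isomerase, changed by -0.30 (adjusted p = 0.10). FASN, fatty acid synthase, and PLIN3, of lipid droplets, were 0.38 and 0.34 higher without passing (adjusted p = 0.20 and 0.17). In glycolysis and hypoxia 1 of 33 passed (3.03%, beside 3.6% of all tested probes). ALDOC, an aldolase, rose 1.92-fold (adjusted p = 0.044), and it rose in mimic against mock too (0.54, adjusted p = 0.045). The respiratory chain had NDUFB2 as its rise and SDHD, a membrane anchor of complex II, as its fall among 57 (3.51%, beside 3.6% of all tested probes). SDHD had 372, 372 and 371 in negative control and 534 and 526 in mock cells (adjusted p = 0.013).

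For the translation and RNA machinery, 3 of 61 cytosolic ribosomal protein genes fell and 0 rose (4.92%, beside 3.6% of all tested probes). Their median was -0.06. RPS3A, RPS4X and RPL34 fell by 0.62, 0.49 and 0.43 (adjusted p = 0.025, 0.013 and 0.032), and processed pseudogenes may share their probes. Of 49 spliceosome and RNA-binding genes 2 fell (4.08%, beside 3.6% of all tested probes). DDX3X, an RNA helicase, and HNRNPK fell by 0.45 and 0.27 (adjusted p = 0.012 and 0.037).

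Adhesion and growth factor genes included several single changes. ITGA5, the fibronectin receptor chain, had 118, 116 and 120.4 in negative control, 46.9, 42.9 and 57.7 in mimic and 60.1 and 55.5 in mock cells, a 2.04-fold rise (0.64 ± 0.064, adjusted p = 0.0062). The 3 negative control arrays lay close together and above every other array, but ITGA5 did not pass on the deposited log2 values and changed by -0.026 with the ring as background. CCN2, a matricellular YAP target, rose 2.74-fold (adjusted p = 0.027). ITGA5 and CCN2 were the 2 rises among 20 mesenchymal, YAP and matrix genes, of which 0 fell (10%, beside 3.6% of all tested probes). KRT80, a keratin, was the call among 27 epithelial genes (3.7%, beside 3.6% of all tested probes). It had 53.2, 42.9 and 61.1 in negative control, 20.9, 19.7 and 18.4 in mimic and 19.4 and 19.5 in mock cells (adjusted p = 0.012). KRT80 did not pass without mock replicate 1, and CCN2 not without any single negative control or mock array. MET, the receptor of hepatocyte growth factor, had 5.08, 6 and 5.93 in negative control, 22, 20.4 and 19.5 in mimic and 30.8 and 30 in mock cells, a 5.36-fold fall in signal (-0.53 ± 0.035 on the offset scale, adjusted p = 0.0023), and it was above background on 2 of the 3 negative control arrays. MET was the only call among 20 mTOR and growth signalling genes (5%, beside 3.6% of all tested probes).

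Of 29 immediate-early and ERK feedback genes 2 rose and 1 fell (10.3%, beside 3.6% of all tested probes). KLF4, a zinc finger factor, had 51.9, 44.3 and 43.6 in negative control, 14.7, 12.8 and 16.7 in mimic and 25.6 and 27.9 in mock cells (adjusted p = 0.022), EPHA2, an ephrin receptor, rose by 0.52 (adjusted p = 0.05), and DUSP6, the phosphatase that dampens ERK, fell by 0.50 (adjusted p = 0.025). The WNT list had 0 of 14, with MYC at -0.40 and DKK1 at -0.31 (adjusted p = 0.098 and 0.25). MCL1, which guards against apoptosis, fell to 65.6 ± 5.13, against 122 ± 6.82 in mimic and 108 ± 10 in mock cells (adjusted p = 0.014). MCL1 was the single call among 31 apoptosis genes (3.23%, beside 3.6% of all tested probes).

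Chromatin and HOX genes had 5 of 41 (12.2%) and 3 of 24 (12.5%) past the test, beside 3.6% of all probes, in both directions. Beside CBX6 and SUZ12, SMARCD2 of the BAF remodelling complex rose 3.50-fold in signal, with 48.2, 49.8 and 53.9 in negative control, 85.1, 69.5 and 49.6 in mimic and 16.7 and 12.3 in mock cells (adjusted p = 0.031). GATAD2A of the NuRD complex fell 3.43-fold at low signal, with 7.69, 6.95 and 7.76 in negative control and 25 and 26.2 in mock cells, and JARID2 of PRC2 fell by 0.20 (adjusted p = 0.012 and 0.047). HOXA9 and HOXC9 rose by 0.42 and 0.24, while HOXB3 fell by 0.31 (adjusted p = 0.036, 0.044 and 0.032). HOXB3 fell further in mimic against mock (-0.59, adjusted p = 0.0037). HOXA9 had 668, 765 and 691 in negative control, 986, 838 and 874 in mimic and 528 and 502 in mock cells, so the mimic arrays lay highest.

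Of the 42 genes named only through a list that passed, 5 kept their call without mock replicate 1 (RAB7A, ATG12, RPL34, ITGA5 and MET) and 21 without mock replicate 2. The number was 11, 20 and 11 without negative control replicate 1, 2 and 3, and 35, 30 and 32 without mimic replicate 1, 2 and 3. Fewer arrays lower the precision of each of these fits. On the deposited log2 values 7 of the 42 passed, with the 2 groups fitted alone 16, with no filter 16, with the replicate numbers as a block 12, with the methods' t-test after Benjamini-Hochberg adjustment 2 and with the ring as background 0.

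The 5 genes that the study named for miR-8073 did not pass in negative control against mock. FOXM1, a cell cycle transcription factor, had 66.7, 72.5 and 74.7 in negative control, 8.71, 6.37 and 6.84 in mimic and 75.2 and 61.8 in mock cells (0.04 ± 0.057, adjusted p = 0.78). CCND1, cyclin D1, had 1952, 2300.3 and 2159 in negative control and 1883 and 1717 in mock cells, and its arrays did not overlap although it was short of the threshold (0.24, adjusted p = 0.34). KLK10, a secreted protease, had 25.4, 29.7 and 27.3 in negative control and 37.1 and 35.4 in mock cells (adjusted p = 0.094). CASP2, a caspase, averaged 18 ± 7.41 in negative control and 14.3 ± 9.06 in mock cells and MBD3, of the NuRD complex, 90.7 ± 4.09 in negative control and 90 ± 13.6 in mock cells, with overlapping arrays (adjusted p = 0.72 and 0.97). The study chose these genes partly on falls with the mimic against both the negative control and the blank of the same experiment. Target predictions and a gene ontology analysis also entered the choice. Their levels in negative control and mock cells were thus part of the selection, so these values are a description.

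Where a called gene had further probes, a second call was uncommon. Of 85 called genes with more than 1 tested probe, 11 had at least 2 probes called, and in these all probes were called. Opposite calls were possible in those 11 alone, and 0 had them. The sign was the same on all probes in 71 of the 85. The share with the same sign among genes that were not called was not computed. Called probes were brighter than the rest, with a median signal of 111.7 for those called lower, 101.3 for those called higher and 39.3 for all tested probes.

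Median promoter GC content was similar for called and all tested genes, while the shares called lower and higher differed between parts of the GC range. Promoters of 250 bases before to 50 after the start were matched by symbol for 8447 of 10260 tested genes (RefSeq, GRCh38.p14). Their median GC content was 64.2% for 206 genes called lower, 67.5% for 140 called higher and 65.0% for all. With the genes cut into 5 equal parts by promoter GC, in the part with the most GC 3.05% were called higher and 1.56% lower, against 1.22% and 1.68% in the part with the least. The median change in these parts was 0.018 and -0.0014, and differences between arrays of a single group had medians in the same parts of 0.019 and 0 (negative control replicates 1 and 2), 0.0034 and -0.0024 (1 and 3), -0.014 and 0.0025 (2 and 3) and 0.0014 and -0.000619 (mock replicates 1 and 2). In the part with the 2nd least GC 1.26% were called higher and 3.45% lower. The comparison by promoter was chosen after the values were seen, and these differences were not tested.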

How the data were processed

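Total RNA of 8 HCT116 samples was amplified and hybridised to a single-dye oligo chip. The authors deposited the spot intensity at 635 nm, neither background-corrected nor normalized, and a table of log2 values normalized by quantiles between arrays, with a background step not given in the sources used here. From the intensities the background was estimated from 2680 blank spots (normexp, offset 50) and arrays were quantile-normalized, in limma 3.58.1 under R 4.3.3 with jsonlite 2.0.0. Printed signals are the normalized value minus 50. A probe counted as above background if it was brighter than the 95th percentile of the blanks, and 12904 probes above it on at least 2 arrays were tested. Control spots and 13 faulty probe spots were left out.

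Group means of negative control, mimic and mock were fitted to all 8 arrays (lmFit, eBayes, 5 residual and 2.36 prior degrees of freedom), with 2-sided p-values adjusted by Benjamini-Hochberg at 0.05. The fit was tested on simulated data. Array number limits the precision. A gene with several probes is given by its brightest probe, unless a further probe is mentioned. The text names the 15 largest falls and rises without overlap between arrays, up to 4 called members of each list (or the 2 with the largest change where none was called) and 5 genes of the study. Genes named beyond that rule, such as ISG15, IRF7, TKT and the sensors, were chosen after their values were seen. The comparison and the lists were chosen with earlier results of these data known. Of 24460 probes, 20236 carried a gene symbol, 2899 of them updated to the current form. Alternatives covered background, offset, scaling, filter, samples, prior, a t-test, a replicate block and leaving out each array.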

Additional observations from a re-analysis of the deposited data

How the results depend on the processing

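The total, lower and higher counts (465, 288 and 177) stayed within 1.5 times with the blank mean subtracted, no background correction, an offset of 100, median centring, cyclic loess, probes above background on all arrays and a robust prior. They moved to 0, 0 and 0 with the ring as background (421 at an unadjusted p below 0.05), to 741, 434 and 307 with an offset of 16, to 89, 79 and 10 on the deposited log2 values, to 178, 121 and 57 with no filter, to 182, 128 and 54 with the 2 groups fitted alone, to 855, 483 and 372 with an intensity trend, and to 6, 6 and 0 with the methods' t-test after Benjamini-Hochberg (1951 unadjusted). At the study's thresholds the methods' t-test called 3 probes, all lower, and on the deposited values 6, all lower. Leaving out an array gave 69 to 417 calls in all, 49 to 262 lower and 20 to 155 higher. The calls kept their sign in every setting but the ring, where 399 of 465 did, with 454 of the 465 tested when probes had to be above background on all arrays. The cause of these shifts was not tested, save that fewer arrays or more tests were used where the setting says so.

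Whether the numbers in the labels pair the samples could not be decided, and the main fit did not use them. Same-numbered arrays deviated together with correlations of -0.11 to 0.35, the highest between mimic and mock. These correlations were 0.025 to 0.10 between negative control and mimic, and none was above 0 between negative control and mock. The deviations of the 2 mock arrays from their mean mirror each other, so the values with mock cannot exclude a pairing. With the replicate block the counts were 141, 102 and 39.

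Of the named genes, 16 changed sign with the ring: UTP3 (-0.15), SUZ12 (-0.63), GLA (0.047), SHMT2 (0.40), ERO1A (-0.49), HSPA13 (0.038), MT1H (0.12), EBP (0.21), ALDOC (-0.062), RRM2 (-0.38), RPL34 (0.065), HNRNPK (0.12), ITGA5 (-0.026), KLF4 (-0.12), HOXB3 (0.10) and MBD3 (-0.10). Changes near 0 also turned for MT1H (0.0045) and CASP2 (-0.062) without mock replicate 1 (-0.34 and 0.22 without mock replicate 2), for FOXM1 on the deposited values (-0.048) and without mock replicate 2 (-0.046), and for MBD3 with median centring (-0.00581), on the deposited values (-0.08), with the replicate block (-0.025), without negative control replicate 3 (-0.00735) and without mock replicate 1 (-0.087, against 0.11 without mock replicate 2). The slide as a block was not run, as the files name no slide. No group held enough arrays for a search for stray samples.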
